A study of Mus musculus with 13 samples.

Results

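Tumours of mice that received tumour-specific T cells were compared with tumours of mice that received control cells, with all of the mice given the same pair of drugs. The comparison holds 5 of the 13 arrays of the series, the 3 arrays of pmel-1 recipients and the 2 arrays of control recipients given dabrafenib and trametinib together, and it was chosen by the sample titles alone. Every tumour was SM1, a transplantable mouse melanoma line with an activating BRAF mutation, grown in C57BL/6 mice. Pmel-1 recipients were given pmel-1 splenocytes by adoptive transfer, that is, spleen cells of mice whose T cells carry a transgenic receptor for gp100, the melanocyte protein encoded by Pmel. Control recipients were given C57BL/6 splenocytes. Both groups received dabrafenib, a BRAF inhibitor, with trametinib, a MEK inhibitor, so that the drugs are shared and the kind of transferred cell differs. The ages and sexes of the mice, the doses, the times, and whether the hosts kept their own lymphocytes were not stated in the sources used here. Nothing in the labels says that the arrays of a group came from separate animals, and the p-values therefore measure only a spread between samples that may be technical.

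T cells that recognise a tumour antigen kill through perforin and granzymes and release interferon gamma. Interferon gamma acts through JAK kinases on promoters that hold the gamma-activated site (GAS), and through IRF factors, which bind the interferon-stimulated response element (ISRE). Its targets include the guanylate-binding proteins and the immunity-related GTPases, the chemokines that bind CXCR3 on T cells, the immunoproteasome, and both classes of MHC. In melanoma this response is known both for making tumour cells visible to T cells and for inducing the checkpoint ligand PD-L1.

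Promoters of 3 members of the interferon-induced GTPase list are shown because they were the only ones, among 35 genes of 5 interferon-responsive lists with a promoter in the RefSeq table (GRCm38.p6), that held both motifs. They run from 250 bases before to 50 bases after the start of the gene, 5′ to 3′, with the motif matches in capitals. The motifs searched, on both strands, were TTCNNNGAA for GAS and GAAANNGAA for ISRE. All 3 promoters lie on the plus strand, Igtp at chr11:58199306-58199605, Irgm2 at chr11:58214727-58215026 and Gbp7 at chr3:142530086-142530385.
Igtp: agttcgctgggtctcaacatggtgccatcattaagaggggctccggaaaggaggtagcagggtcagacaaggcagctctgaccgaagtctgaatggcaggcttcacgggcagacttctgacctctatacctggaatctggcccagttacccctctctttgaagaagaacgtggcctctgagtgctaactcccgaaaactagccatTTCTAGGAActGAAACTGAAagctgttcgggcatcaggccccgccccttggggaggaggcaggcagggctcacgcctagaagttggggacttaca
Irgm2: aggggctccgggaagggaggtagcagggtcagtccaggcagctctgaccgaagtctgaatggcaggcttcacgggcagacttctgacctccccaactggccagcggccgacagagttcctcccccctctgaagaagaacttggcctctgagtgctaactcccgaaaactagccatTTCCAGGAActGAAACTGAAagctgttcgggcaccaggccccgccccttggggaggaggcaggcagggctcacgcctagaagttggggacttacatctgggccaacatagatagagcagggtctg
Gbp7: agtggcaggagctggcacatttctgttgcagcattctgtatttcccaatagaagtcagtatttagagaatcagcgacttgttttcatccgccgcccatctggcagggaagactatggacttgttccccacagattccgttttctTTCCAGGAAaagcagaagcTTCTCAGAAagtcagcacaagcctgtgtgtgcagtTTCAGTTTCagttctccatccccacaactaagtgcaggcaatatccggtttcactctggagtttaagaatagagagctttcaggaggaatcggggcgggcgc

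The GAS match of Igtp begins at −45 and its ISRE match at −34 from the start site. In Irgm2, its neighbour on chromosome 11, they begin at −75 and −64, and in both promoters the second begins 11 bases after the first. Gbp7 holds 2 GAS matches, at −106 and −87, and an ISRE match at −52 on the reverse strand. Read on its own strand the ISRE match has the same letters, GAAACTGAA, in all 3 promoters, and no GAS match overlaps an ISRE match in them. Of the 10 GTPase genes tested 7 had a promoter in the table, of which 3 (42.9%) held GAS and 6 (85.7%) held ISRE, against 9.55% and 9.76% of all 27025 genes of the table. Both motifs were in 42.9% of the GTPase promoters and in 1.24% of all. Igtp and Irgm2 share long stretches of the printed sequence, so their matches are not separate occurrences. The promoters of the MHC class II list were nearer to all genes, 1 of 8 (12.5%) with each motif. GAS and ISRE were in 1 and 2 of 11 class I promoters, in 1 and 1 of 6 immunoproteasome promoters, and in 0 and 2 of 3 T cell chemokine promoters. A match describes these letters in this window and is not a measured binding site.

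Each array gives a log2 intensity per probe set, and 13783 genes were tested with limma over all 13 arrays. Differences are pmel-1 minus control, on the log2 scale, ± SE from that fit. A gene is said to rise or fall where its Benjamini-Hochberg adjusted p over all genes was under 0.05. A gene under 5.79 on an array is treated there as not above background. Where a whole group lies under that level the fold is a lower bound, set against 5.79 and written "at least". Within the pmel-1 group the arrays correlated at r = 0.988 to 0.992 across genes and the 2 controls at 0.992, against 0.969 to 0.987 between the groups. These correlations are across genes, and genes are no independent replicates. A measure of RNA integrity separated the groups. The mean log2 3′/5′ ratio of the β-actin and GAPDH control probe sets was 1.31, 1.26 and 0.86 on the pmel-1 arrays and 0.19 and 0.42 on the control arrays. The means were 1.15 ± 0.25 (SD, n = 3) and 0.30 ± 0.17 (SD, n = 2), with a two-sided exact permutation p of 0.1, the smallest that 3 against 2 arrays allow. Because no pmel-1 array overlaps a control array in this ratio, it and the kind of transfer cannot be told apart by design. Calls with this ratio as an added term in the fit are given beside the groups of genes, as "with the 3′/5′ term".

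Under both drugs, more genes were higher than lower with pmel-1 transfer. The lists of interferon-induced GTPases (10 of 10), type I interferon response (20 of 26), MHC class II (8 of 11) and general leukocyte genes (11 of 15) rose in most of their tested members. None of 5 B cell genes rose, which is near the share of all genes that did (2.66%). Of 13783 genes 584 changed (4.24%), of which 366 rose (2.66%) and 218 fell (1.58%). Of these, 191 rose and 25 fell by at least 2-fold. The median over all genes was −0.01. All 584 had arrays that did not overlap between the groups, a condition that 5866 of 13783 genes met (42.6%), 19.8% with pmel-1 higher and 22.7% with pmel-1 lower. With the 3′/5′ term 46 genes changed, 43 higher and 3 lower, of which 44 were among the 584. The count was 119 and 174 without control replicate 2 or 3, 217 and 181 without pmel-1 replicate 1 or 2, and 1033 without pmel-1 replicate 3, where 565 fell and 468 rose.

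**Figure D1:**
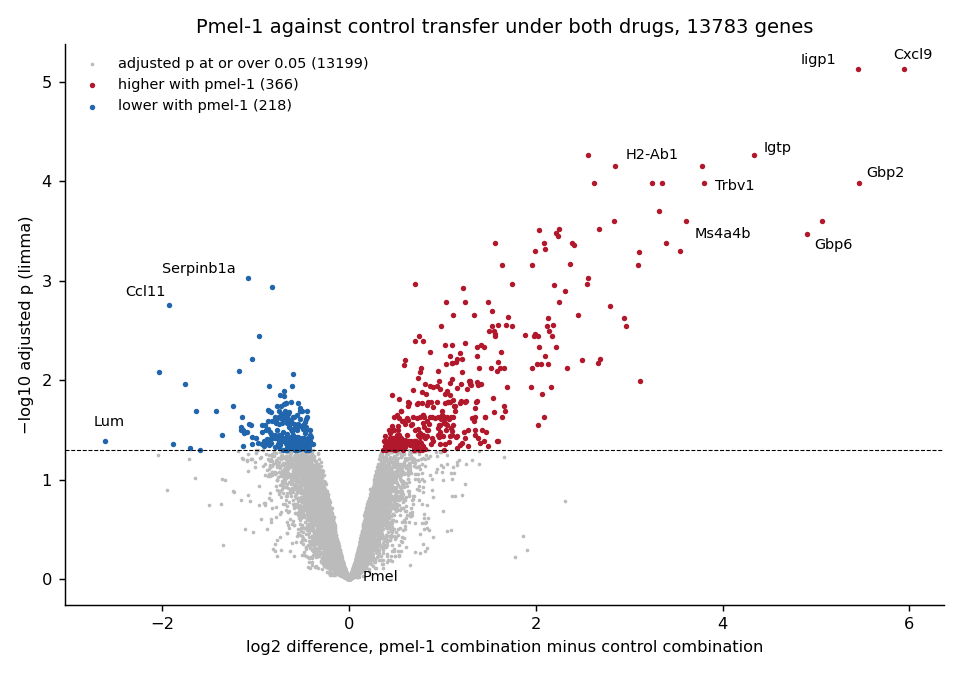
Each point is 1 of 13783 genes, with the log2 difference between pmel-1 and control tumours under both drugs on the horizontal axis and −log10 of the adjusted p on the vertical axis. The dashed line marks an adjusted p of 0.05; rises (red, 366) reach a fitted value of 5.95 at Cxcl9, whose controls are not above background, and falls (blue, 218) reach −2.61 at Lum.

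The interferon-induced GTPases, which act on membranes of vacuoles that hold intracellular pathogens, had the highest median of the lists with more than 1 tested gene. All 10 tested members rose, with a median of 3.21, and 10 of the 17 names listed had a probe set of their own. Gbp2 read 10.72, 12.11 and 11.12 on the pmel-1 arrays and 5.43 and 6.28 on the control arrays. Its difference was 5.46 ± 0.44 (44.0-fold, adjusted p = 1.03e-04). Every pmel-1 array was far above both control arrays, and a second probe set of the gene gave 5.21. Iigp1 read 10.85, 12.02 and 11.19 against 5.68 and 6.12, a difference of 5.45 ± 0.29 (43.8-fold, adjusted p = 7.51e-06). Control replicate 2 lay under 5.79 in both Gbp2 and Iigp1, so their folds are not exact. Gbp6 read 11.04, 11.99 and 10.91 against 5.93 and 6.88 (4.91 ± 0.47, 30.0-fold). Igtp, whose promoter is printed above, read 11.38, 12.27 and 11.80 against 7.31 and 7.64 (4.34 ± 0.30, 20.3-fold). Pmel-1 replicate 2 was the highest array for each of these 4 genes. Ifi47 (3.32 ± 0.29), Gbp7 (3.09 ± 0.34), Gbp3 (2.80 ± 0.35), Irgm2 (2.55 ± 0.30) and Irgm1 (2.36 ± 0.26) followed, all well above background in both groups. Gbp8 read 5.16, 6.38 and 5.82 against 3.18 and 3.28, at or near the background level throughout, so its difference of 2.56 has no fold. All 10 passed whichever array of the comparison was left out, and 7 passed with the 3′/5′ term, where Gbp3 (adjusted p = 0.0936), Irgm2 (0.062) and Gbp8 (0.0556) did not.

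**Figure D2:**
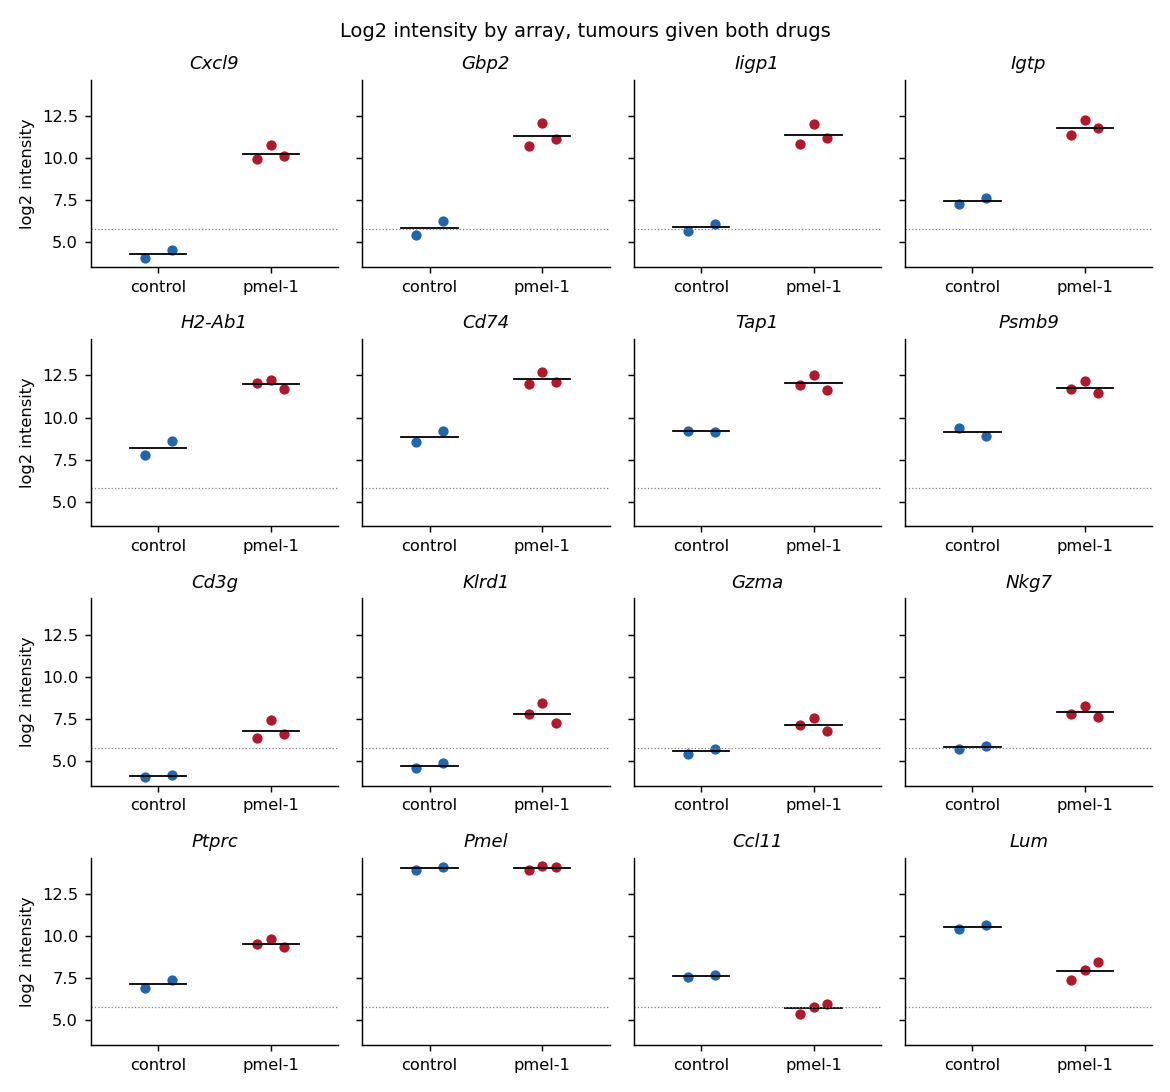
Log2 intensity of 16 genes on each array of tumours given both drugs, control recipients (blue, 2 arrays) and pmel-1 recipients (red, 3 arrays), with black bars at the group means and the dotted line at the background level of 5.79. Gbp2 and Iigp1 lie near that line in controls and above 10.7 in pmel-1 tumours, Pmel lies at the same height in both, and Ccl11 and Lum lie lower in pmel-1 tumours.

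Genes of the type I interferon response, which overlap in their control with those of interferon gamma, rose in 20 of 26 tested members (median 1.20), and no member fell. Oasl2, an oligoadenylate synthetase-like protein, read 8.52, 9.98 and 8.85 against 5.96 and 6.34 (2.97 ± 0.40, 7.82-fold, adjusted p = 0.00284). Bst2, or tetherin, which holds budding virus on the cell, read 12.65, 13.11 and 12.33 against 10.42 and 10.47 (2.25 ± 0.21). The arrays of Bst2 did not overlap between the groups, as held for every gene that changed. Usp18, a feedback inhibitor of interferon receptors, differed by 2.19 ± 0.29, Trim30a by 2.49 ± 0.39, Ifit1 by 2.16 ± 0.37 and Irf7, the factor that amplifies interferon production, by 1.66 ± 0.27. Only Bst2 of this list passed with the 3′/5′ term (1.73, adjusted p = 0.00617), and between 4 and 22 members passed when an array was left out.

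Interferon gamma itself (Ifng) was under the filter on low values and was not tested. Of 14 tested genes of its signalling pathway 6 rose and none fell, with a median of 0.67. Nlrc5, the transactivator of MHC class I genes, read 10.81, 11.41 and 10.82 against 8.46 and 8.81 (2.39 ± 0.24, 5.22-fold, adjusted p = 4.18e-04). It was the only member to pass with the 3′/5′ term. Irf1, an early interferon gamma target, read 11.04, 11.72 and 10.94 against 9.01 and 9.21 (2.12 ± 0.29, 4.35-fold). Irf8 differed by 2.13 ± 0.34 and Batf2 by 1.98 ± 0.28. Ciita, the transactivator of MHC class II genes, read 6.63, 6.76 and 6.52 against 5.56 and 5.62, where it was not above background (1.05 ± 0.13). The receptor chains and kinases did not pass: Ifngr1 was at 0.10 (adjusted p = 0.519), Ifngr2 at −0.66 (0.0732), Jak1 at −0.71 (0.0558) and Jak2 at −0.08 (0.742). The feedback inhibitors Socs1 (0.66, adjusted p = 0.0733) and Socs3 (0.68, 0.226) did not pass either.

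Among 6 tested chemokines and receptors that draw T cells 3 rose. Cxcl9, a CXCR3 ligand induced by interferon gamma, read 9.93, 10.77 and 10.10 on the pmel-1 arrays and 4.10 and 4.54 on the control arrays, where it was not above background. The difference was 5.95 ± 0.31 (adjusted p = 7.51e-06) and the fold at least 22.2, with 3.10 at its other probe set. Cxcl10, a second CXCR3 ligand, read 10.07, 11.12 and 10.12 against 8.29 and 7.20 (2.69 ± 0.41, 6.46-fold). Its controls were well above background, unlike those of Cxcl9. Ccl5, made by T and NK cells, read 10.52, 11.02 and 9.92 against 8.42 and 7.92 (2.31 ± 0.28, 4.97-fold). Cxcl11 (0.37, adjusted p = 0.191), Cxcl16 (0.49, 0.0997) and the receptor Cxcr3 (0.09, 0.876) did not pass. With the 3′/5′ term Cxcl9 passed (5.43, adjusted p = 8.45e-04) and Ccl5 (1.91, 0.0735) and Cxcl10 (2.17, 0.225) did not.

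Of 13 chemokines and receptors that act on myeloid cells 5 rose and 1 fell (median 0.75). Ccl8 read 10.79, 11.52 and 11.40 against 8.67 and 9.31 (2.25 ± 0.28, 4.75-fold), Ccl9 differed by 2.10 ± 0.32, Ccl12 by 1.66 ± 0.31, Ccl6 by 1.59 ± 0.26 and the receptor Ccr1 by 1.38 ± 0.24. Ccl11, or eotaxin, which draws eosinophils and is made by fibroblasts among other cells, went the other way. It read 5.38, 5.81 and 5.96 against 7.61 and 7.68, a difference of −1.93 ± 0.24 (3.80-fold lower, adjusted p = 0.00174). Its pmel-1 replicate 1 lay under 5.79, so this fold is not exact. Ccl11 was the only member of this list to pass with the 3′/5′ term (−2.32, adjusted p = 0.0116).

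MHC class I presents peptides that the proteasome cuts and the TAP transporter carries to it. Of 13 tested class I and loading genes 7 rose (median 0.65) and of 7 proteasome genes 4 rose (median 0.65). Psmb9 and Psmb8 encode catalytic subunits of the immunoproteasome. Psmb9 read 11.70, 12.15 and 11.44 against 9.36 and 8.92 (2.62 ± 0.21, 6.16-fold, adjusted p = 1.03e-04), and Psmb8 read 11.11, 11.57 and 10.99 against 8.67 and 8.66 (2.56 ± 0.18, 5.88-fold, adjusted p = 5.49e-05). Psmb10, another inducible subunit, differed by 1.05 ± 0.21 and the activator Psme1 by 0.65 ± 0.12. The constitutive subunits that they replace did not pass, Psmb5 at −0.17 (adjusted p = 0.261), Psmb6 at −0.17 (0.279) and Psmb7 at −0.70 (0.116).

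Tap1, a subunit of the peptide transporter, read 11.95, 12.51 and 11.65 against 9.22 and 9.17 (2.84 ± 0.26, 7.17-fold), but its other probe set gave 0.07. Tap2, the second subunit, differed by 1.62 ± 0.26, Tapbp (tapasin) by 1.08 ± 0.18 and the trimming peptidase Erap1 by 1.08 ± 0.16. The non-classical chain H2-M3 rose by 2.03 ± 0.19 (4.09-fold). The classical chains were near the top of the scale in all tumours, H2-K1 at 14.58, 14.68 and 14.60 against 13.93 and 13.89 (0.71 ± 0.08, adjusted p = 0.00107) and H2-D1 at 0.60 ± 0.09. H2-K1 and H2-D1 share sequence with each other and with other class I genes, so their probe sets may read more than 1 gene. B2m, the light chain, was at 0.01 ± 0.10 (adjusted p = 0.948), and the general chaperones Calr (0.04), Canx (0.03) and Pdia3 (−0.42) did not pass. With the 3′/5′ term Tap1, H2-M3, H2-K1, Psmb8 and Psmb9 passed.

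MHC class II genes, which dendritic cells, macrophages and B cells carry constitutively and other cells can gain under interferon gamma, rose in 8 of 11 tested members (median 1.59). H2-Ab1 read 12.03, 12.24 and 11.69 against 7.80 and 8.62 (3.78 ± 0.28, 13.7-fold, adjusted p = 6.99e-05), and its other probe sets gave 2.64 and 3.54. H2-Aa read 12.41, 12.81 and 12.26 against 8.47 and 9.42 (3.55 ± 0.37, 11.7-fold). The invariant chain Cd74 read 11.98, 12.68 and 12.13 against 8.52 and 9.20 (3.40 ± 0.34, 10.5-fold) and H2-Eb1 read 11.50, 11.73 and 11.31 against 8.04 and 8.49 (3.25 ± 0.26, 9.50-fold). In these 4 genes control replicate 3 was the higher control, and no control array came within 2 log2 units of a pmel-1 array. H2-DMa, which edits the bound peptide, rose by 2.22 ± 0.21, the protease Ctss by 1.59 ± 0.25 and Lgmn by 0.56 ± 0.14. H2-DMb2 (−0.01), H2-Oa (0.33) and Ifi30 (0.36) did not pass. The 4 genes named first and H2-DMa passed with the 3′/5′ term. The summed intensity of the 12 class II genes with a probe set was 23660 to 31557 in pmel-1 and 5473 and 6571 in control tumours. In bulk tumour RNA, more cells of a type and more RNA per cell cannot be told apart, here and in all groups that follow.

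**Figure D3:**
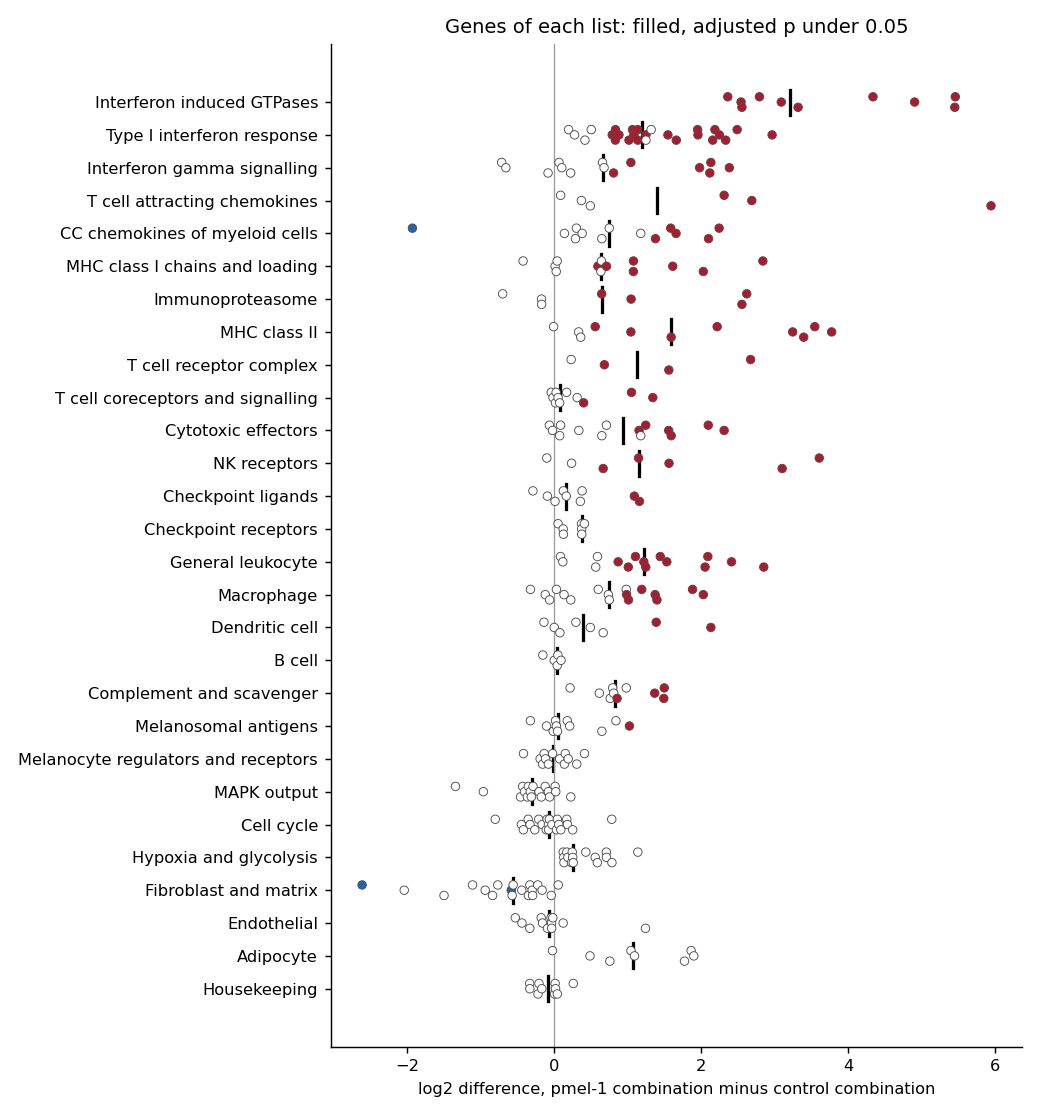
Each circle is a tested gene of the list named at the left, placed at its log2 difference between pmel-1 and control tumours under both drugs, filled where the adjusted p was under 0.05 (red higher, blue lower), with black bars at list medians. The interferon-induced GTPases have a median of 3.21 and all 10 filled, whereas B cell, melanocyte regulator, MAPK output, cell cycle and housekeeping genes have no filled circle.

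The T cell receptor complex signals through the CD3 chains. Of 4 tested genes of the T cell receptor complex 3 rose. Cd3g read 6.35, 7.42 and 6.59 against 4.05 and 4.17 (2.67 ± 0.25, at least 1.99-fold, adjusted p = 3.02e-04), Cd3d read 7.30, 7.45 and 6.92 against 5.61 and 5.71 (1.56 ± 0.16, at least 2.70-fold), and Cd3e read 7.63, 7.46 and 7.23 against 6.86 and 6.65 (0.68 ± 0.14, 1.61-fold). None of the 3 overlapped between the groups, which held for every gene that changed and, with pmel-1 higher, for 19.8% of all genes. Cd3g and Cd3d were not above background on either control array. Cd247, Trat1, Cd5 and Ubash3a were under 5.79 on all 5 arrays. The summed intensity of the 8 genes of the complex with a probe set was 557 to 691 in pmel-1 and 337 and 343 in control tumours. Trbv1, a beta variable segment of the T cell receptor by its name in the probe table, read 8.61, 9.54 and 8.53 against 5.16 and 5.02 (3.80 ± 0.30, at least 8.58-fold, adjusted p = 1.03e-04). Which receptor chains this probe set reads was not tested.

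CD8 and CD4 are the coreceptors of the T cell receptor. Cd8a read 6.46, 6.52 and 6.49 against 6.51 and 6.50, a difference of −0.01 ± 0.10 (adjusted p = 0.948), and Cd4 was at 0.17 ± 0.11 (0.384). The 5 Cd8a values lie within 0.06 of each other, while a second, dimmer Cd8a probe set gave 0.66. Cd8b1, the gene of the other CD8 chain, was under the filter and not tested. It read 5.83, 5.52 and 5.27 against 4.64 and 4.69, near or under background throughout. Second probe sets of Icos and Bcl11b likewise gave 0.61 and 0.73, where the brightest gave 0.05 and 0.03. Of 11 tested coreceptor and signalling genes 3 rose, the adaptor Lcp2 by 1.05 ± 0.19, the phosphatase Ptpn22 by at least 1.23-fold against controls not above background, and the adaptor Lat by 0.40 ± 0.09. The median of this list was 0.08, and none passed with the 3′/5′ term. Of the receptor complex Cd3g (adjusted p = 0.0192) and Cd3d (0.0148) passed with it, as did Trbv1 (0.00617).

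Of 14 tested cytotoxic genes 6 rose (median 0.94). Nkg7, a granule membrane protein of killer cells, read 7.81, 8.30 and 7.63 against 5.72 and 5.90 (2.10 ± 0.22, 4.28-fold, adjusted p = 4.81e-04). Its control replicate 2 lay under 5.79, so this fold is not exact. The granzyme Gzma read 7.16, 7.55 and 6.80 against 5.43 and 5.72, at least 2.60-fold (1.59 ± 0.21), and Gzmb read 6.49, 7.23 and 5.96 against 5.55 and 5.08, at least 1.71-fold (1.25 ± 0.28, adjusted p = 0.038, passing in 7 of 15 alternatives). Ctsw, a protease of cytotoxic cells, differed by 1.56 ± 0.22 and the chemokine Xcl1, not above background in the controls, by at least 1.09-fold. Perforin (Prf1) read 6.34, 6.00 and 5.95 against 6.09 and 5.95, a difference of 0.08 ± 0.13 (0.758), with the groups overlapping. Fasl, Tnf, Gzmk and Tbx21 were, like Ifng, under the filter. Nkg7 was the only one of these to pass with the 3′/5′ term.

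Of 7 tested genes in a list of NK receptors and MS4A membrane proteins 5 rose. Klrd1 (CD94), a receptor of NK cells and activated CD8 T cells, read 7.78, 8.42 and 7.26 against 4.56 and 4.87 (3.10 ± 0.33, at least 4.08-fold, adjusted p = 5.11e-04). Ms4a4b, a membrane protein of T cells, read 7.17, 8.43 and 7.25 against 3.82 and 4.19 (3.61 ± 0.33, at least 3.54-fold). Ms4a6b differed by 1.56 ± 0.22 and Ms4a4c by 1.15 ± 0.18 (3.71 at its other probe set). Klrk1, not above background in the controls and near it in pmel-1 tumours, passed too. Ncr1, a receptor that defines NK cells, was at −0.10 ± 0.12 (0.666), and Klrg1 was at 0.24 (0.303). Both were near background throughout, Ncr1 running from 5.48 to 5.86 against 5.75 and 5.80, so a difference could not be measured well. Klrd1 and Ms4a4b passed with the 3′/5′ term.

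Of 9 tested checkpoint ligands 2 rose. Cd274 (PD-L1) read 8.51, 8.92 and 8.24 against 7.27 and 7.52 (1.16 ± 0.26, 2.24-fold, adjusted p = 0.0364), passing in 9 of 16 alternatives, and Cd86, the ligand of CD28 and CTLA-4, read 6.85, 6.51 and 6.82 against 5.57 and 5.69 (1.09 ± 0.22, at least 1.91-fold). Neither passed with the 3′/5′ term (0.45 and 0.56). No checkpoint receptor passed among 7 tested, which had a median of 0.37 and included Lag3 (0.37, adjusted p = 0.214) and Tnfrsf9 (0.38, 0.0676). Pdcd1, Ctla4 and Havcr2 were under 5.79 on all 5 arrays. Of the regulatory T cell list 3 genes were tested and none passed, and Foxp3 and Il2ra were under 5.79 on all 5 arrays.

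General leukocyte genes rose in 11 of 15 members (median 1.22). Cd52, a surface glycoprotein of lymphocytes and other leukocytes, read 9.87, 10.45 and 9.84 against 7.23 and 7.17 (2.85 ± 0.21, 7.23-fold, adjusted p = 6.99e-05). Ptprc (CD45) read 9.51, 9.83 and 9.37 against 6.90 and 7.41 (2.42 ± 0.25, 5.33-fold), Coro1a differed by 2.09 ± 0.21 and Selplg, a selectin ligand, by 1.22 ± 0.14. These 4 passed with the 3′/5′ term and in the other alternatives run. The summed intensity of the list was 7945 to 10848 in pmel-1 and 3253 and 3354 in control tumours.

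Of 17 tested macrophage genes 7 rose (median 0.75), led by Aif1 at 2.03 ± 0.30 (4.09-fold), the oxidase subunit Cybb at 1.88 ± 0.26 and the Fc receptor Fcgr1 at 1.38 ± 0.20. Csf1r, the receptor of macrophage growth factor, read 10.95, 11.02 and 10.90 against 9.43 and 10.10 (1.19 ± 0.29, adjusted p = 0.0445). No member passed with the 3′/5′ term, and between 1 and 5 passed when an array was left out. The summed intensity was 23089 to 27215 in pmel-1 and 18142 and 19367 in control tumours, with Itgam under 5.79 on all 5 arrays. Among 10 genes linked to alternatively activated macrophages Arg1, an arginine-degrading enzyme, read 6.93, 7.55 and 7.25 against 4.74 and 4.41 (2.67 ± 0.42, at least 2.73-fold), and it passed with the 3′/5′ term (3.44, adjusted p = 0.0221). Chil3, not above background in the controls either, rose by at least 1.84-fold and F13a1 by 0.94 ± 0.17, whereas Lyve1, a hyaluronan receptor of lymphatic vessels and of some macrophages, fell by at least 1.34-fold, being below background on all 3 pmel-1 arrays (adjusted p = 0.0436, passing in 6 of 16 alternatives). Mrc1 was at 1.01 (0.0738).

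Of 8 tested dendritic cell genes Itgax (1.39 ± 0.22) and Irf8 rose. Batf3 was at 0.49 (adjusted p = 0.141), and Xcr1, Ccr7 and Cd209a were under 5.79 on all 5 arrays. Of 10 complement and scavenger genes 4 rose, the scavenger receptor Msr1 (2.83-fold), Cfb by 1.49 ± 0.18, C1ra by 1.37 ± 0.23 and C2 by 0.86 ± 0.18. None of 5 tested B cell, 5 neutrophil and 2 eosinophil and mast cell genes passed, with medians of 0.04, 0.14 and −0.04. Ms4a1, Cd79b, S100a8, S100a9, Siglecf and Epx were under 5.79 on all 5 arrays. Summed B cell markers were 594 to 677 in pmel-1 and 602 and 655 in control tumours, so that the ranges overlapped.

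Pmel, the gene of gp100, read 13.93, 14.16 and 14.11 on the pmel-1 arrays and 13.93 and 14.14 on the control arrays, a difference of 0.03 ± 0.14 (adjusted p = 0.917), with the groups overlapping. Its level was near the top of the scale on all 5 arrays. Of 11 tested melanosomal genes 1 rose (median 0.05), the pigment cell potassium channel Kcnj13, which read 11.16, 11.27 and 10.96 against 10.63 and 9.58 (1.03 ± 0.25, adjusted p = 0.0435) and passed in 7 of 16 alternatives. Tyr (−0.10), Dct (0.02), Mlana (−0.01), Gpnmb (0.05) and Slc45a2 (−0.32) did not pass. Of 13 regulators and receptors of melanocytes none passed, among them Mitf (−0.19, adjusted p = 0.216) and Ednrb (−0.42, 0.0734). Of 15 genes of dedifferentiation and drug resistance, such as Ngfr (0.53, 0.524) and Axl (0.14, 0.669), none passed.

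Genes that report ERK signalling did not pass, as was so for most genes tested, of which 4.24% passed. None of 18 passed, the median was −0.30 and 15 were below 0, with Dusp4 at −0.29 (adjusted p = 0.632), Spry1 at −0.40 (0.267), Spred2 at −0.96 (0.181) and Myc at −0.43 (0.301). With the 3′/5′ term the median of these 18 genes was 0.10. The pmel-1 arrays differed among themselves. The summed intensity of the 19 genes with a probe set was 25094, 26117 and 33358 in pmel-1 and 34512 and 31791 in control tumours. Etv5, with the lowest difference (−1.34), read 8.21, 7.57 and 9.93 against 10.72 and 9.10. Pmel-1 replicate 3 lay between the controls in both. None of 22 cell cycle genes passed (median −0.08), and Mki67 was at 0.25 (0.385), Pcna at −0.44 (0.103) and the cell cycle inhibitor Cdkn1a at 0.79 (0.0701). Of 17 regulators of cell death 3 rose, Casp12 by 1.04 ± 0.16, the pore-forming Gsdmd by 0.64 ± 0.13 and the survival gene Bcl2l1 by 0.60 ± 0.14, whose other probe sets gave −0.12 and 0.12. None of 16 hypoxia and glycolysis genes passed, although all 16 were above 0 (median 0.26), with Car9 at 1.14 (0.145). With the 3′/5′ term their median was 0.98 and Pfkp passed (1.29, adjusted p = 0.0343). Control replicate 3 was the lowest array for Car9, at 5.90, and for Slc2a1, at 9.54 against 10.50 in the other control.

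The falls had a median of −0.66 and the rises of 1.03. Lum (lumican), a proteoglycan of collagen fibrils, read 7.42, 7.97 and 8.46 against 10.45 and 10.68 (−2.61 ± 0.61, 6.12-fold lower, adjusted p = 0.0405) and passed in 10 of 16 alternatives. Aspn (asporin), of the same proteoglycan family, read 4.26, 4.68 and 5.14 against 6.62 and 6.82, at least 1.91-fold lower (−2.03 ± 0.33, adjusted p = 0.00831). Decorin (Dcn), of that family too, ran from 8.22 to 9.20 against 10.58 and 11.11 and did not pass (−2.04 ± 0.53, adjusted p = 0.0559). In all 3 genes pmel-1 replicate 1 was the lowest array. Of 19 fibroblast and matrix genes 18 were below 0, and Lum and the collagen-degrading protease Ctsk (−0.58 ± 0.12) fell (median −0.56). The collagen gene Col1a1 was at −0.16 ± 0.70 (0.915) and Postn at −0.56 (0.103). The summed intensity of the list was 26393, 33127 and 40297 in pmel-1 and 48419 and 61387 in control tumours, and its value in the other 8 arrays ran from 22643 to 44597.

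Others among the 20 largest falls are given by their differences. Enpep, a peptidase of pericytes, was at −1.70 ± 0.42, Gucy1a1, a subunit of the nitric oxide receptor, at least 2.33-fold lower and below background on all 3 pmel-1 arrays, Agtr1a, an angiotensin receptor, at −1.15 ± 0.25, Fbn2, a fibrillin, at −1.59 ± 0.40 (adjusted p = 0.0499) and Igfbp7 at −1.36 ± 0.30, with −0.62 and −0.003 at its other probe sets. Of 12 endothelial genes none passed (median −0.07), with Pecam1 at −0.16 and Vcam1 at 1.24 (0.109). Ugt8a, an enzyme of galactosylceramide synthesis, fell (−1.75 ± 0.30), as did Gsdme (−1.42 ± 0.27, but −0.16 at its other probe set), Qpct, a glutaminyl cyclase (−1.17 ± 0.19), the retinoic acid receptor Rarb (−1.16 ± 0.25) and Il1rap, a chain of the interleukin-1 receptor (−1.14 ± 0.25). Prpmp5, Rpf1, Ankrd49, Adsl and Polr3f fell by between 1.09 and 1.24 on the log2 scale. Other probe sets ran from −0.58 to 0.43 for Polr3f and from −0.07 to 0.05 for Rpf1, so that some lay above 0. Serpinb1a, a protease inhibitor, read 9.88, 9.93 and 9.79 against 10.79 and 11.08 (−1.08 ± 0.12, adjusted p = 9.40e-04). Of the 20 falls, Ccl11 and Serpinb1a (−1.02, adjusted p = 0.0454) passed with the 3′/5′ term, and these are the 2 that passed in every alternative run. Of the 20 largest rises 16 passed with the 3′/5′ term, all but Ubd (1.62, 0.186), Oasl2 (2.20, 0.125), Ly6e (2.19, 0.113) and Gbp3.

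**Figure D4:**
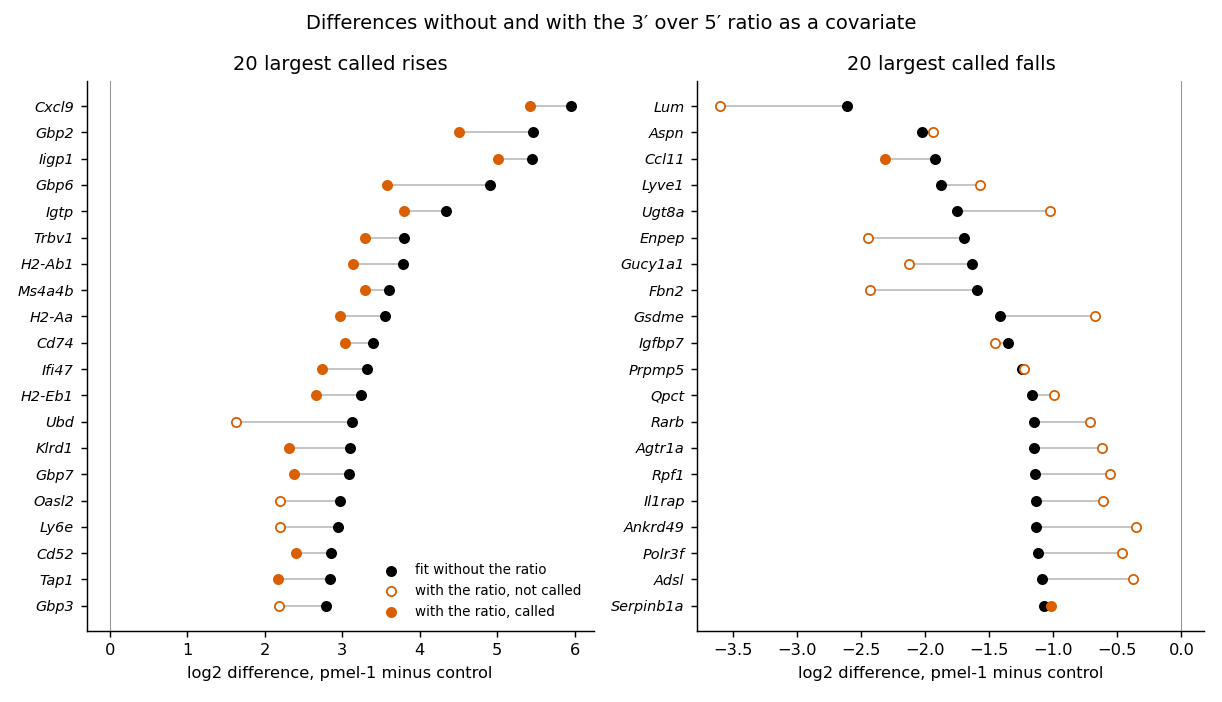
Log2 differences between pmel-1 and control tumours for the 20 largest rises (left) and falls (right), without (black) and with (orange) the 3′/5′ term, the orange circle filled where the adjusted p was under 0.05. Most rises stay filled at smaller values (Cxcl9 moves from 5.95 to 5.43), while of the falls only Ccl11 and Serpinb1a are filled and Lum moves to −3.60 without passing.

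Markers of neighbouring tissue differed between arrays of the pmel-1 group. Adipoq, an adipocyte hormone, read 5.47, 10.05 and 7.54 against 5.77 and 5.80 and did not pass (1.90 ± 1.59, adjusted p = 0.507). The summed intensity of 9 adipocyte genes was 5487, 16643 and 6216 in pmel-1 and 4821 and 3985 in control tumours, and none of 8 tested passed. Without pmel-1 replicates 2 and 3, the 2 arrays with the highest Adipoq, 237 genes changed, 128 higher and 109 lower, of which 184 were among the 584. None of 5 skeletal muscle, 4 keratinocyte, 2 erythroid and 10 housekeeping genes passed, with medians of −0.14, −0.03, −0.17 and −0.08.

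The same transfer without the drugs was set beside these results to ask whether the difference depends on them. It rests on 2 pmel-1 and 2 control tumours given vehicle, none of which is in the comparison above. Under vehicle no gene passed (0%) in limma, with 1822 of 13783 at an unadjusted p under 0.05 (13.2%) and a smallest adjusted p of 0.0671. The 366 genes that rose under the combination had a median of 0.14 under vehicle and 263 of them were above 0 there, against 6256 of all 13783. Of the 218 genes that fell, 135 were below 0 under vehicle, with a median of −0.07. Most of all genes were likewise not above 0 there, with a median of −0.02. Iigp1 was at 2.61 under vehicle, Gbp2 at 2.03, Cxcl9 at 1.77 and H2-Ab1 at 1.40, none of which passed.

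The test of the difference itself, the interaction of the transfer and the drugs, passed for 39 genes (0.283%), of which 38 were among the 584, 32 of the rises and 6 of the falls. The interaction holds the difference under the combination as a term, so this overlap and its signs were largely fixed in advance. Cxcl9 differed by 4.17 ± 0.45 more under the drugs than under vehicle (adjusted p = 0.0225), Gbp6 by 3.99 and Igtp by 3.11. Gbp2, whose rise under the drugs was among the largest, did not pass this test (3.43, adjusted p = 0.0662). The interaction count was 0 with the 3′/5′ term. Leaving out control combination replicate 2, control combination replicate 3, the control vehicle array numbered 3 or the pmel-1 vehicle array numbered 1 also gave 0, and it was 5 to 33 without any other array of the test.

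**Figure D5:**
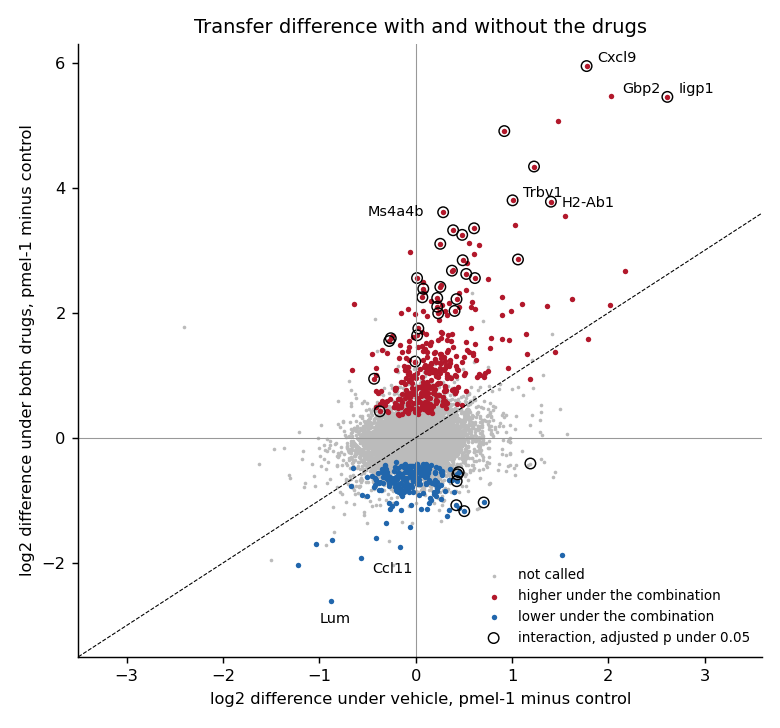
Each point is a gene, with its log2 difference between pmel-1 and control tumours under vehicle on the horizontal axis and under both drugs on the vertical axis, coloured where it passed under both drugs and ringed where the interaction passed. The dashed line marks equal differences; Cxcl9 lies at 1.77 and 5.95, and Lum at −0.88 and −2.61.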

How the data were processed

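RNA of SM1 tumours was measured on Affymetrix GeneChip mouse arrays. The authors deposited a log2 intensity for each probe set, made with RMA and the affy package per the submitters' processing notes. Their versions, any batch and the probe set definition were not stated in the sources used here. Of 45101 probe sets 34945 have exactly 1 gene symbol, 932 several and 9160 none, beside 64 array controls. The brightest probe set of each symbol was kept, and a gene was tested if it exceeded 5.79, the 40th percentile of the values, on at least 2 arrays. Groups were taken from the sample titles and labels. The 6 group means were fitted to the 13 arrays in limma 3.58.1 (R 4.3.3; 7 residual degrees of freedom) and p-values adjusted by Benjamini-Hochberg over 13783 genes. On simulated data for the comparison under the combination, with 200 changed genes among 13783, the fit recovered 86.0% of 2-fold and 98.0% of 4-fold changes, with 4.17% false calls. The simulated noise was independent between genes and held no 3′/5′ difference between the groups. These rates therefore do not give the share of false calls on the measured arrays. Same-numbered arrays of the 2 groups deviated from their group means with r = −0.115 and −0.189 across genes. The deviations of 2 control arrays are mirror images, so these values cannot decide whether the numbers mark pairs. The numbers were not used as pairs in the main fit.

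Genes were named if they were among the 20 largest rises or the 20 largest falls that passed without overlap of arrays, or had any of the 10 lowest p-values. From every list the leading tested gene and at most 6 of lowest p were named, and any member of the T cell, cytotoxic, NK, T cell chemokine, GTPase, interferon gamma, antigen presentation, checkpoint and melanosomal lists. RIKEN, Gm and LOC symbols and expressed sequences were counted and not named. The members and lists were chosen with earlier results of these data known. Promoters came from RefSeq (GRCm38.p6). Alternatives changed the filter, scaling, arrays in the fit, array weights, variance prior, probe set rule, the 3′/5′ term and a replicate block, and left out arrays. The number of arrays limits the precision.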

Additional observations from a re-analysis of the deposited data

Results flagged for a closer look

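The effect of pmel-1 transfer differed between tumours given both drugs and tumours given vehicle, by the limma interaction test (adjusted p under 0.05), in 28 of the 274 named genes. Over all genes it was 39 of 13783 (0.283%). Many named genes were chosen for their difference under the combination, which is a term of the interaction, so these shares are not comparable. The value of each of the 28 genes is the difference under the combination minus that under vehicle, on the log2 scale. Among interferon-induced genes these were Cxcl9 (4.17), Gbp6 (3.99), Igtp (3.11), Ifi47 (2.93), Iigp1 (2.84), Gbp8 (2.54), Bst2 (2.18) and Oas1a (1.82). Of antigen presentation they were H2-Eb1 (2.76), H2-Ab1 (2.37), Tap1 (2.35), Nlrc5 (2.31), Psmb9 (2.10), Psmb8 (1.94), H2-DMa (1.79) and H2-M3 (1.63). Of lymphocytes and other leukocytes they were Ms4a4b (3.32), Klrd1 (2.85), Trbv1 (2.79), Cd3g (2.30), Ptprc (2.16), Nkg7 (1.87), Gzma (1.85), Cd52 (1.79) and Selplg (1.22). The values below 0 were those of Ctsk (−1.02), Serpinb1a (−1.50) and Qpct (−1.68). For Cxcl9, Cd3g, Klrd1, Trbv1, Ms4a4b, Gzma and Gbp8 the control arrays of both the combination and vehicle were not above background, and for Iigp1 and Gbp6 those of vehicle were not, so that the sizes of these values are not exact. The pmel-1 vehicle arrays of Cd3g (4.46 and 4.70), Klrd1 (4.60 and 5.11) and Ms4a4b (4.3 and 4.6) were not above background either. For these genes the difference under vehicle lies between values at background. Gbp8 (0.02) and Gzma (−0.26) differed little under vehicle from control arrays at background, so their pmel-1 vehicle means were not clearly above it either. The 3′/5′ ratio was 0.86 to 1.31 in the pmel-1 combination tumours and 0.18 to 0.42 in the other 6 tumours of this test, and with it as a term in the fit no gene passed. Groups of 2 and 3 arrays are too small for a test of single outlying arrays.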

How the results depend on the processing

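The count of 584 genes under the combination stayed within 1.5 times, from 545 to 708, with no or a stricter filter on low values, array weights, median centring, renewed quantile normalization, the mean of probe sets, and a trend with robust prior. It was 46 with the 3′/5′ term, 378 when the fit held no other arrays, 237 without pmel-1 combination replicates 2 and 3, and 119 to 1033 with 1 array left out. With the replicate block, where it is not known whether the numbers mark pairs, the counts were 232 for the combination, 0 for vehicle and 1 for the interaction. For vehicle the count of 0 became 2 with the 3′/5′ term, 5 with array weights, 3 with no filter, 2 with only the arrays compared, 1 after quantile normalization and 0 to 48 with 1 array left out (48 without control vehicle replicate 1 and 38 without pmel-1 vehicle replicate 2). The interaction count of 39 became 0 with the 3′/5′ term, 65 with array weights, 0 without pmel-1 combination replicates 2 and 3, 10 after median centring, 90 with only the arrays compared and 0 to 33 with 1 array left out. The cause was not tested. Of 1845 values of the 116 named genes that passed, 1490 kept their direction and call, 355 lost the call and 0 turned direction, and 32 genes passed in every alternative run. The arrays of these genes do not overlap between the groups. Leaving out arrays or changing the filter, array weights or prior therefore could not turn a direction. The number of arrays, and levels near background for T cell genes, limit what can be measured.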

Other observations

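The tumours of pmel-1 recipients given a single drug, which belong to no comparison above, can be placed beside the others by their levels. With dabrafenib alone (2 arrays) Cxcl9 read 9.79 and 10.34, Iigp1 10.98 and 11.37, H2-Ab1 11.78 and 12.44, Trbv1 8.68 and 9.02 and Klrd1 7.76 and 8.47. Except for Klrd1 replicate 2, at 8.47 against a highest combination value of 8.42, and H2-Ab1 replicate 2, at 12.44 against 12.24, these lie within the range of the 3 pmel-1 combination arrays or, for Cxcl9 replicate 1, just below it. With trametinib alone (2 arrays) the same genes read lower, Cxcl9 at 8.33 and 7.76, Iigp1 at 9.20 and 8.63, H2-Ab1 at 10.42 and 10.11, Trbv1 at 7.41 and 6.57 and Klrd1 at 6.21 and 5.55. In pmel-1 tumours given vehicle Cxcl9 read 5.64 and 6.50 and Trbv1 5.85 and 6.22. Of other genes, dabrafenib replicate 1 read below every pmel-1 combination array for Gbp2 (10.36), Igtp (11.23), Cd3g (6.26) and Ptprc (9.31). Dabrafenib replicate 2 was within the combination range for Gbp2, Igtp and Cd3g and above it for Ptprc (10.08). The differences between drugs were not tested here. The 3′/5′ ratio was 0.60 and 1.65 in the dabrafenib and 1.22 and 0.68 in the trametinib tumours, and 0.18 and 0.22 in the pmel-1 vehicle tumours.

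Arg1, which rose with pmel-1 transfer under the combination, read 8.33 and 7.33 in pmel-1 vehicle tumours and 5.59 and 5.74 in control vehicle tumours. It read 4.74 and 4.41 on the 2 control combination arrays, and neither these nor the control vehicle arrays were above background. For Lum and Ccl11 the 2 control combination arrays were the highest of the 13, Lum at 10.45 and 10.68 against 6.05 to 9.05 elsewhere, and Ccl11 at 7.61 and 7.68 against 5.05 to 6.32 elsewhere.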
